A study of Mus musculus with 6 samples.

Results

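Chemokines are small secreted proteins that steer leukocytes by acting on G-protein-coupled receptors, and endothelial cells both make them and display them on the vessel wall. The genes described here are 46 mouse genes for chemokine ligands and receptors, measured in endothelial cells sorted from the skin of mice lacking APJ and of wild-type mice. APJ is the receptor for the peptide apelin and is encoded by Aplnr. A gene was taken as measured when a probe's transcript accession mapped to its symbol, which held for 45 of the 46 genes, out of 20018 gene symbols in all. Cxcl11 had no such probe and was not analysed here.

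The 2 groups were 3 APJ KO samples and 3 wild-type (WT) samples, all of strain C57Bl/6J, each measured on 1 one-colour Agilent expression array. Per the labels, the cells were obtained by fluorescence-activated sorting with no treatment afterwards, and the labels used here give neither age nor the surface markers of the sort. An embryonic stage appears only in the names of the files, so it is not treated as a label. Each sample is numbered as 1 mouse, but nothing says how many animals were pooled, and p-values therefore describe the spread among these samples, which may be technical. The labels name the genotype only, without saying how or in which cells APJ was removed.

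Chemokine ligands fall into CXC, CC and CX3C classes by the spacing of conserved cysteines. Most are secreted and bind to glycans on the endothelial surface, while CX3CL1 and CXCL16 are made as membrane-anchored proteins. Receptors signal through inhibitory G proteins, except the atypical receptors, which take up ligands and remove them without such signalling.

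All levels are log2 signals relative to the 75th percentile of the same array, so that 0 is that percentile. Arrays held 59305 spots from 55681 probes, 50.3% to 58.0% of the probes were well above background, and no spot was saturated. Replicates 1 and 2 of both genotypes shared slide 1, with 4 arrays, and replicate 3 of both lay on slide 2, with 2 arrays. A slide was also a scanning batch. The pan-endothelial markers were well above background on all 6 arrays, 13 of 13 of them, with a median difference of 0.02. Aplnr, on chromosome 2, had 1.90, 1.72 and 2.26 in the APJ KO arrays, against 3.35, 3.78 and 3.83 in the WT arrays. Its level in APJ KO was 30.9% of WT, a difference of -1.69 ± 0.19 by limma (adjusted p = 0.0238, SE with n = 3 in each genotype), but the adjusted p was 0.0780 when blocked by replicate number, 0.188 without the filter on dim probes and 0.0850 within slide 1. Dropping an array other than APJ KO replicate 3 gave 0.0522 to 0.145, and dropping that array gave 0.0354. Where the probe lies relative to the deletion is not known, so it is an incomplete check of the labels.

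Of the 45 genes with a probe, 24 were well above background on all 6 arrays, 8 on 1 to 5 arrays and 13 on none. Among ligands 15 of 29 were seen on all arrays and 8 on none, and among receptors 9 of 16 were seen on all arrays and 5 on none. The undetected ligands were the neutrophil attractants Cxcl3 and Cxcl5, the B-cell attractant Cxcl13, the monocyte and eosinophil attractants Ccl8 and Ccl11, and Ccl20, Ccl22 and Ccl28. The undetected receptors were Cxcr1, Cxcr2, Ccr1, Ccr4 and the atypical receptor Ackr4. A probe that is not well above background has only a bound, and this does not show that the gene is silent. The number of genes detected was 27, 26 and 30 in the APJ KO arrays, against 28, 25 and 30 in the WT arrays, so the array on slide 2 gave the most in each genotype. Of the 8 genes seen on some arrays, Ccl12 and Ccr10 were each on 1 APJ KO array and 1 WT array, Ccl24 on 2 and 1, and Ccr3 on 1 and 2. Cxcl9 was on WT replicate 3 alone, and Ccl7 on 2 APJ KO arrays and no WT array. Cxcl2 was on all but WT replicate 2, and Ccl1 on 1 APJ KO array and 3 WT arrays.

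**Figure D1:**
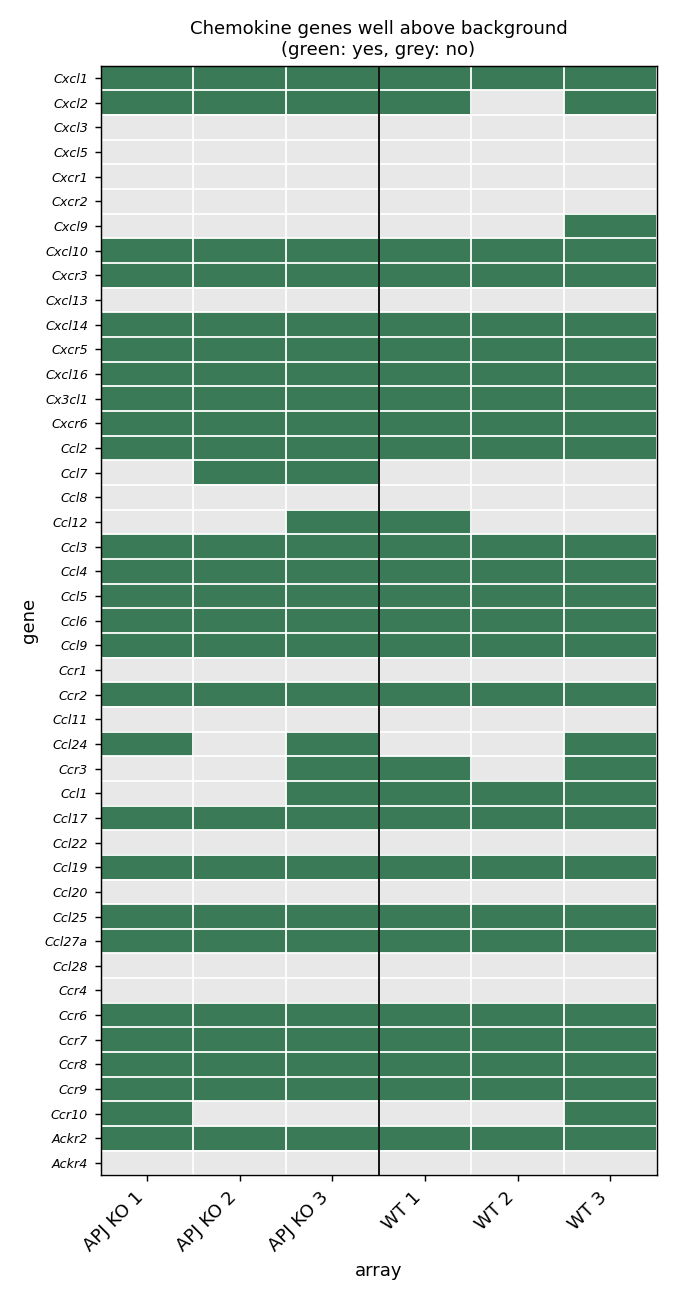
Detection of the 45 chemokine genes with a probe, genes down the side and arrays across, APJ KO left and WT right; a green cell is a gene well above background on that array. Of the genes, 24 are green on all 6 arrays and 13 on none.

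Detection in the sorted material does not assign a gene to a cell type, and in these bulk samples fewer cells of a type and less RNA per cell cannot be told apart. A gene was tested where its probe was well above background on every array of at least 1 genotype, and 26 chemokine genes met this. None of the 26 passed the limma test at an adjusted p under 0.05, against 0.557% of the 24246 genes and unnamed probes tested over the whole array (0.371% higher and 0.186% lower in APJ KO). At an unadjusted p under 0.05 there were 3 chemokine genes, Ackr2, Ccr9 and Ccr2, against 8.01% of everything tested. Blocking by slide, 2 chemokine genes were called, Ackr2 and Ccr2, both higher in APJ KO, against 1.2% of everything tested in either direction and 0.784% higher. Blocking by replicate number, none of the 26 was called, against 0.0206% of everything tested.

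The 26 differences were spread widely around 0. Their median was -0.06, beside -0.02 over everything tested, and it was 0.41 without WT replicate 3, the library that moved it most. There were 12 genes above 0 (46.2%), beside 43.9% of everything tested. The genes differed by at least 1 in size in 6 of 26 cases (23.1%), beside 1.28% of everything tested. Their SE was also larger, with a median of 0.29 beside 0.13. Of the 6 genes, Cxcl2 and Ccl1 passed the filter only through the genotype where they were higher. Over probes well above background on all 6 arrays the count was 4 of 24 (16.7%), beside 0.729%. The count was 3 of 27 without WT replicate 2, beside 1.36%. It was 0 of 26, beside 0.305%, with the normexp background correction, which adds an offset of 50. The groups did not overlap for 4 genes, Ackr2, Ccr9, Ccr2 and Cxcl16 (15.4%), beside 12.2% of everything tested. The same sign at all 3 replicate numbers was seen for 17 of 26 genes, 10 of them above 0 and 7 below, beside 39.3% of everything tested.

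**Figure D2:**
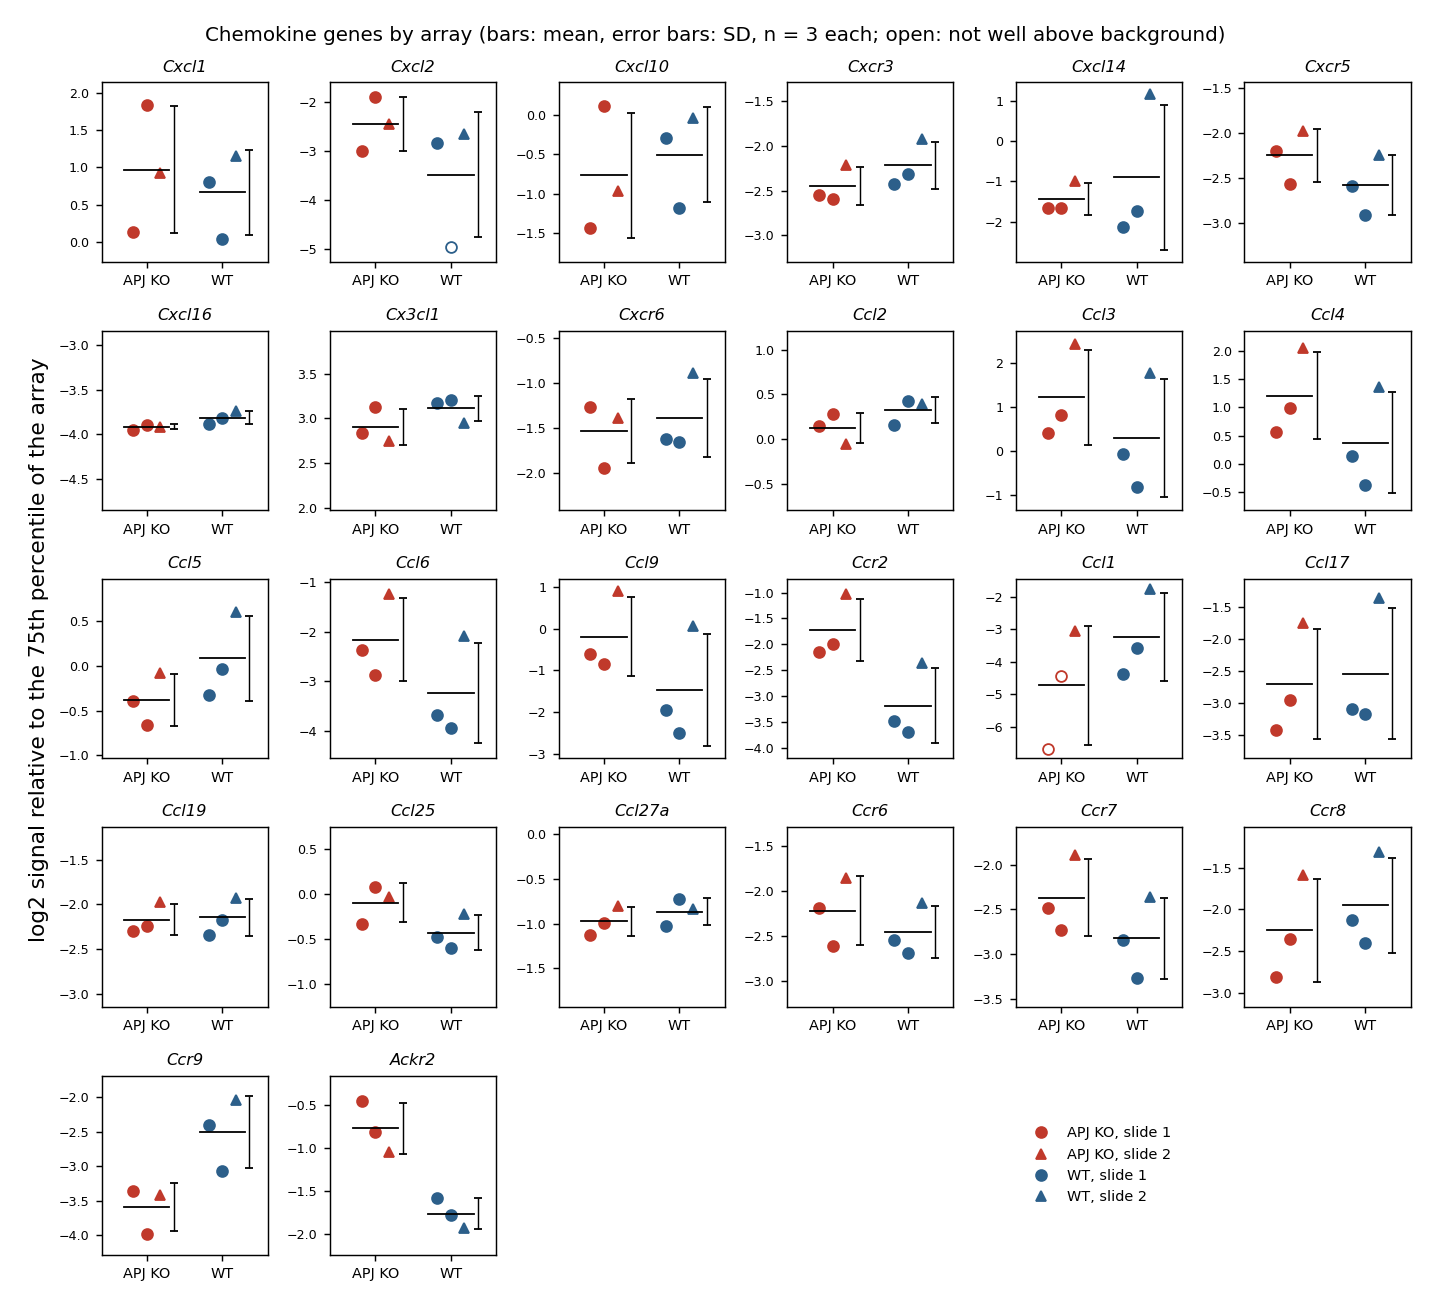
Levels of the 26 tested chemokine genes, log2 signal relative to the array's 75th percentile, APJ KO (red) left of WT (blue) in each panel; circles are slide 1, triangles slide 2, open symbols lie not well above background, and the bar and error bar are the mean and SD of 3 arrays. The Ackr2, Ccr2, Ccr9 and Cxcl16 groups do not overlap, and the triangles are the highest points of both genotypes in 15 of the 26 panels. Each panel spans at least 2 log2 units.

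Slide 2 arrays stood apart for many of these genes. In 15 of the 26 genes the slide 2 array was above both slide 1 arrays in each genotype, beside 29.1% of everything tested. The 15 included the CC ligands Ccl3, Ccl4, Ccl5, Ccl6, Ccl9 and Ccl17, and Ccr2, Ccr6, Ccr7 and Ccr8. The mean of slide 2 minus slide 1 was 2.04 for Ccl3 and 1.95 for Ccl9, both larger than their genotype differences. Of the 5 tested mast cell markers, Cpa3, Cma1, Mcpt4 and Tpsb2 were also higher on slide 2 in both genotypes, and Kit was not. Their summed signal was 18.1, 19.4 and 55.3 in the APJ KO arrays, against 20.5, 19.1 and 70.3 in the WT arrays, and 4 of 6 of them were seen on all arrays, so slide 2 was high in both genotypes. The sum of APJ KO replicate 1 lacks the marker Cma1, whose spot was an outlier there. The part of those cells in the chemokine values was not tested.

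The atypical receptor Ackr2, which takes up inflammatory CC chemokines and is known from lymphatic endothelium, had the smallest p of the tested chemokine genes. It is on chromosome 9 and had -0.45, -0.82 and -1.05 in the APJ KO arrays, against -1.58, -1.79 and -1.94 in the WT arrays. All APJ KO values lay above all WT values. The difference was 1.00 (95% confidence interval 0.58 to 1.42), and 0.84 to 1.14 when any 1 array was left out. It did not pass the test over all genes (limma adjusted p = 0.0904), and passed when blocked by slide (adjusted p = 0.0370). The Ackr2 difference was 0.71 with normexp (limma adjusted p = 0.122). Without the filter on dim probes its limma adjusted p was 0.414. Within slide 1 the difference was 1.05, and within slide 2 it was 0.90. The exact permutation test gave p = 0.1, the smallest that 3 arrays against 3 allow. A second Ackr2 probe stayed near background throughout.

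Markers of lymphatic endothelium also lay above 0, as Ackr2 did. The 7 markers were all seen on all 6 arrays. A difference above 0 was found for 7 of 7, beside 43.9% of everything tested, with a median of 0.59. Groups did not overlap for 6 of the 7 markers, beside 12.2%. The summed signal of the 7 markers was 50.7 to 60.9 in APJ KO, against 38.2 to 40.1 in WT. Prox1, the transcription factor of lymphatic identity, had 0.14, 0.01 and -0.51 in the APJ KO arrays, against -0.67, -0.98 and -1.12 in the WT arrays (adjusted p = 0.238). None passed the test, and their part in the Ackr2 difference was not tested. Ackr1, the Duffy antigen receptor of venules, which was not among the 46 genes, had -2.97, -2.89 and -2.45 in APJ KO, against -2.31, -1.85 and -1.95 in WT (difference -0.73, adjusted p = 0.229).

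Ccr2, the monocyte receptor for CCL2, is on chromosome 9 and had -2.14, -1.99 and -1.04 in the APJ KO arrays, against -3.49, -3.70 and -2.36 in the WT arrays. The groups did not overlap, and each genotype's slide 2 array was its highest. The difference was 1.46 (95% confidence interval 0.43 to 2.49, limma adjusted p = 0.339), and blocking by slide gave an adjusted p of 0.0134. Within slide 1 it was 1.52 and within slide 2 it was 1.32. Leaving out 1 array gave 1.11, without APJ KO replicate 3, to 1.87, without WT replicate 3. With normexp the difference was 0.65 (adjusted p = 0.401).

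Most macrophage markers also lay above 0, as Ccr2 did. Of the 15 listed markers 14 were tested, since Cd68 had no mapped probe, and 10 were seen on all arrays. Of the tested markers 12 had a difference above 0, beside 43.9% of everything tested, and 7 had groups that did not overlap, beside 12.2%. In WT replicate 2, Lyz2, C1qa, C1qc and Adgre1 had -5.53, -5.35, -4.99 and -5.65. All were under -4.35, the lowest signal called well above background on that array. These genes therefore passed the filter only through APJ KO, where they were higher, and the counts include them. Their differences, 1.79 to 2.07, were the largest of the list. The median was 0.47, and their summed signal was 56.7 to 59.8 in APJ KO, against 51.0 to 60.2 in WT. Lyz2, a lysozyme gene, had -2.92, -3.70 and -3.25 in APJ KO, against -5.26, -5.53 and -4.57 in WT (adjusted p = 0.0706), while Csf1r, the receptor for the macrophage growth factor, had 2.73, 2.74 and 2.62, against 2.69, 2.80 and 3.28. Neutrophil markers had 3 of 6 tested above 0, with a median of 0.33, among them Mpo at 2.10 and S100a8 at 1.34. Elane was at -1.60, with 2.20, 2.16 and -1.74 in APJ KO, against 2.31, 2.41 and 2.68 in WT. That size rests on APJ KO replicate 3, and within slide 1 the Elane difference was -0.18. Ngp and Ltf were on no array. The summed signal of the neutrophil list was 123.0 to 140.5 in APJ KO, against 125.2 to 146.8 in WT. Most of that sum came from Csf3r, with a mean of 6.98 in APJ KO and 7.04 in WT. It therefore says little about the dimmer markers. Dendritic cell markers had 2 of 4 tested above 0, with a median of 0.14 and H2-Ab1 at 0.88, and Cd207 was on no array; their sum was 1.82 to 2.52 in APJ KO, against 1.34 to 1.86 in WT. None of these markers passed the test, and their part in the values of Ccr2 and of the myeloid CC ligands was not tested.

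Ccr9, the receptor for CCL25, is on chromosome 9 and had -3.35, -3.98 and -3.42 in the APJ KO arrays, against -2.40, -3.06 and -2.04 in the WT arrays. All APJ KO values lay below all WT values. The difference was -1.08 (95% confidence interval -1.78 to -0.38, limma adjusted p = 0.281), with -0.93 within slide 1 and -1.38 within slide 2. With normexp the difference was -0.38 (adjusted p = 0.410). Blocking by slide gave an adjusted p of 0.148. Its ligand Ccl25, on chromosome 8, had -0.34, 0.08 and -0.03 in APJ KO, against -0.48, -0.60 and -0.22 in WT, which overlap, and the difference was 0.34 (95% confidence interval -0.03 to 0.70, adjusted p = 0.688). A second Ccl25 probe, on a noncoding transcript of the gene, had -4.22, -4.42 and -4.25 in APJ KO, against -4.73, -4.54 and -4.81 in WT, and was not well above background on all arrays of either genotype.

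**Figure D3:**
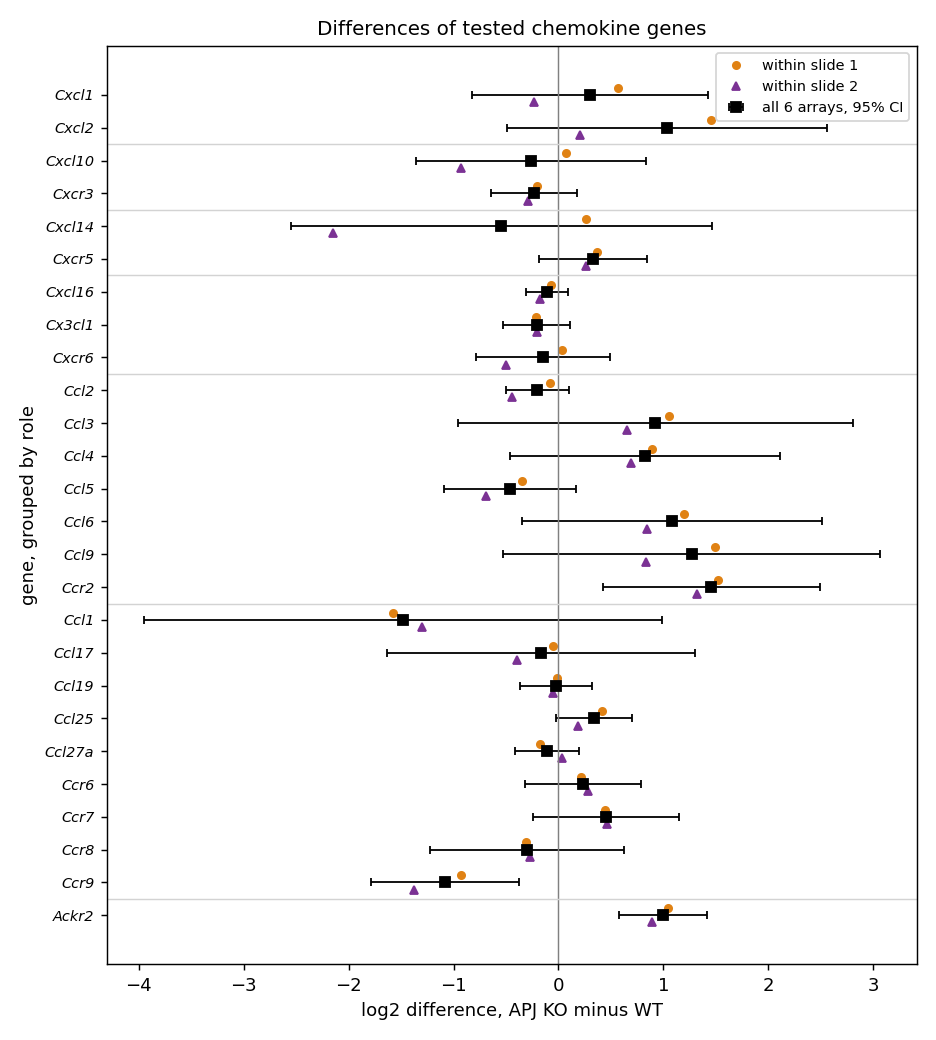
Log2 difference, APJ KO minus WT, of the 26 tested chemokine genes grouped by role; black squares with bars are all 6 arrays with the 95% confidence interval, orange circles the difference within slide 1 and purple triangles within slide 2. The intervals of Ackr2, Ccr2 and Ccr9 lie to one side of 0, and no gene passed the test over all genes.

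The neutrophil attractants with the ELR motif were represented by Cxcl1 and Cxcl2 on chromosome 5, since Cxcl3, Cxcl5 and the receptors Cxcr1 and Cxcr2 were not detected. Cxcl1 had 0.14, 1.84 and 0.93 in the APJ KO arrays, against 0.80, 0.04 and 1.16 in the WT arrays. The groups overlap, and APJ KO replicate 2 and WT replicate 2 were the extremes of the set. The difference was 0.30 (95% confidence interval -0.82 to 1.43, limma adjusted p = 1.00), -0.13 without APJ KO replicate 2 and -0.01 without WT replicate 2. Cxcl2 had -3.00, -1.90 and -2.45 in APJ KO, against -2.85, -4.96 and -2.66 in WT, where WT replicate 2 was not well above background. Its difference of 1.04 (95% confidence interval -0.49 to 2.56, adjusted p = 0.914) was 0.30 without WT replicate 2 and 0.26 with normexp.

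Cxcl10, a ligand of CXCR3 induced by interferon, is on chromosome 5 and had -1.44, 0.11 and -0.97 in APJ KO, against -0.29, -1.18 and -0.04 in WT. It differed by -0.26 (95% confidence interval -1.35 to 0.84, limma adjusted p = 1.00), and by 0.08 within slide 1. The receptor Cxcr3 differed by -0.23 (adjusted p = 0.999).

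Within each genotype Cxcl1, Cxcl2 and Cxcl10 shared an order of arrays, noticed after the values were seen. In APJ KO replicate 1 was the lowest and replicate 2 the highest for all 3 genes, and in WT replicate 2 was the lowest for all 3. The order was read from these 3 genes, so their sharing it is no test of it. Of the other tested chemokine genes only Ccl25 shared the order, which was found in 2.86% of everything tested. The order was found in 1 of 17 NF-kB inducers and feedback genes, Nfkbia, and in 3 of 14 interferon signalling genes, Irf1, Irf8 and Socs1. It was also found in 1 of 19 receptor signalling genes, Elmo1, and in 0 of 7 other chemokine system genes. Other genes known as NF-kB targets did not share it, such as Tnfaip3, with 1.48, 2.31 and 2.61 in APJ KO, against 1.98, 1.64 and 2.97 in WT, and Il6 and Tnf, whose highest APJ KO array was also replicate 3. Nfkbia, the NF-kB inhibitor that is itself a target of NF-kB, had 5.64, 6.40 and 6.08 in APJ KO, against 6.10, 5.65 and 6.09 in WT. Irf1, an early gene of interferon signalling, had 4.32, 5.32 and 4.66 in APJ KO, against 5.17, 4.19 and 4.64 in WT. The genotype difference was 0.09 for Nfkbia and 0.10 for Irf1, each with an adjusted p of 1.00. The upstream sequences of the 3 chemokine genes, the 250 bases before the start of the gene from RefSeq on GRCm38.p6, are shown because each holds a motif of the NF-kB type. Capitals mark motif matches.

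Cxcl1 (chr5:90890995-90891244, plus strand): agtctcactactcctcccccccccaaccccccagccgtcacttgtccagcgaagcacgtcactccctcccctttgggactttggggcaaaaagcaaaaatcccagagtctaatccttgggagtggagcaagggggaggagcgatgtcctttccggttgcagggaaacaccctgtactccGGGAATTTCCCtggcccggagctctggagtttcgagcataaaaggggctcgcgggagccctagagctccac

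Cxcl2 (chr5:90903649-90903898, plus strand): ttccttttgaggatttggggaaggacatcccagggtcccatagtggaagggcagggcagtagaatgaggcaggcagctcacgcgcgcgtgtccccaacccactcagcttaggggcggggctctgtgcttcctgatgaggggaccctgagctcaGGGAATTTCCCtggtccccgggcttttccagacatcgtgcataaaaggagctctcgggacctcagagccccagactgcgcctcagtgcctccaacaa

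Cxcl10 (chr5:92348890-92349139, minus strand): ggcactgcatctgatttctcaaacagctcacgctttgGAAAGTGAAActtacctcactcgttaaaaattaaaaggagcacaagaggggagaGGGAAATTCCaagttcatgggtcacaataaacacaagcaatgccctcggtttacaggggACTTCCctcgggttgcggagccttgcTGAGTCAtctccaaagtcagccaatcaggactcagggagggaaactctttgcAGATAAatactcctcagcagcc

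The NF-kB motif searched was GGGA, any 3 bases and TCC, on both strands, and it occurred in 3.86% of 32851 upstream sequences of this length. It was in 8 of the 34 chemokine genes, of 46, that matched such a sequence, Cxcl1, Cxcl2, Cxcl3, Cxcl10, Ccl1, Ccl22, Ccr1 and Ccr3. Ccl25, which shared the order of arrays, had a sequence without this motif. Ccl1, which held the motif and was tested, did not share the order. A link between motif and order was not tested. In Cxcl1 the match began at base -71 and in Cxcl2 at base -97, each overlapping its own reverse by all but 1 base, and in Cxcl10 it began at base -159, counted back from the start. The Cxcl10 capitals also mark an interferon-type element, GAAA, any 2 bases and GAAA (2.98% of sequences), an AP-1 element, TGANTCA (6.75%), an ETS element, GGAAGT, which occurs here on the other strand (19.7%), and a GATA element, AGATAA (9.99%). A match describes letters in this window and is not evidence of binding.

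**Figure D4:**
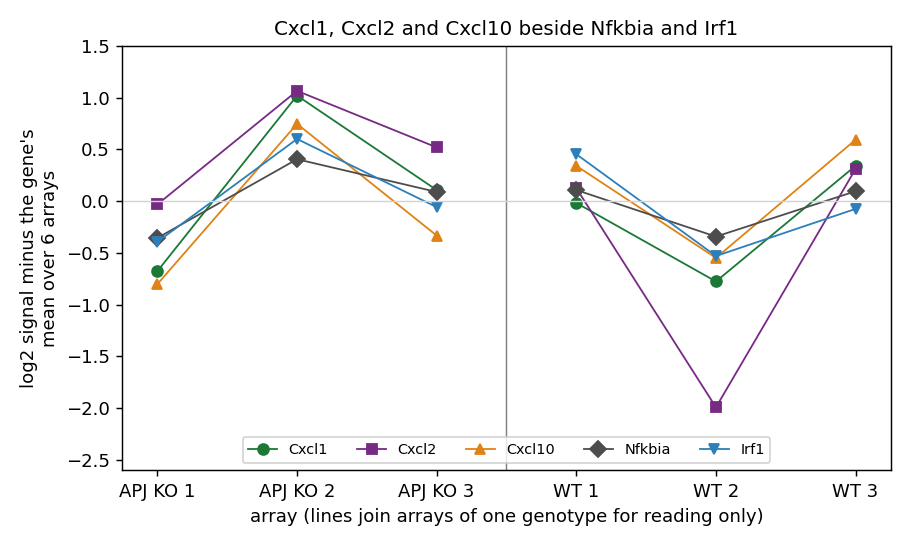
Levels of Cxcl1, Cxcl2, Cxcl10, Nfkbia and Irf1 as log2 signal minus the gene's mean over 6 arrays, APJ KO arrays left and WT arrays right; lines join arrays of a genotype for reading only. In APJ KO replicate 2 is the highest and replicate 1 the lowest of all 5 genes, and WT replicate 2 is the lowest in WT. Nfkbia and Irf1 were added after their values were seen.

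Of the 6 tested inflammatory CC ligands, all on chromosome 11, all but Ccl2 were highest on slide 2 in both genotypes. Ccl3, an attractant of monocytes and T cells, had 0.40, 0.81 and 2.44 in APJ KO, against -0.07, -0.83 and 1.79 in WT (difference 0.92, 95% confidence interval -0.96 to 2.80, limma adjusted p = 1.00). Ccl4, its relative, had 0.57, 0.99 and 2.06 in APJ KO, against 0.14, -0.36 and 1.36 in WT (difference 0.83, adjusted p = 0.941). Ccl9, a myeloid-cell attractant, had -0.62, -0.85 and 0.89 in APJ KO, against -1.95, -2.49 and 0.06 in WT (difference 1.27, 95% confidence interval -0.52 to 3.06, adjusted p = 0.891). Each of the 3 genes was above WT at every replicate number, and in each only WT replicate 3 reached into the APJ KO values. Blocking by slide, the adjusted p was 0.187 for Ccl3, 0.123 for Ccl4 and 0.0677 for Ccl9. Ccl6, a related ligand on the same chromosome, differed by 1.08 (adjusted p = 0.848, or 0.0629 blocked by slide), and by 0.47 with normexp. Each of these differences was smallest without APJ KO replicate 3 and largest without WT replicate 3, at 0.31 and 1.67 for Ccl3, 0.40 and 1.32 for Ccl4, 0.73 and 2.03 for Ccl9, and 0.62 and 1.66 for Ccl6.

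Ccl2 and Ccl5 had differences below 0. Ccl2, the monocyte attractant, had 0.15, 0.28 and -0.05 in APJ KO, against 0.16, 0.43 and 0.39 in WT, and differed by -0.20 (95% confidence interval -0.50 to 0.10, limma adjusted p = 0.923). Ccl5, a T-cell attractant, had -0.40, -0.66 and -0.09 in APJ KO, against -0.33, -0.03 and 0.60 in WT, and differed by -0.46 (95% confidence interval -1.09 to 0.17, adjusted p = 0.867). Both genes were below WT at every replicate number.

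Cx3cl1, the membrane-anchored ligand of CX3CR1, is on chromosome 8 and had 2.83, 3.13 and 2.75 in APJ KO, against 3.18, 3.21 and 2.95 in WT. It differed by -0.21 (95% confidence interval -0.53 to 0.11, limma adjusted p = 0.941). Cxcl16, the other membrane-anchored ligand, differed by -0.10, with groups that did not overlap (-3.95 to -3.89 in APJ KO, against -3.88 to -3.74 in WT). The receptor of CXCL16, Cxcr6, differed by -0.14.

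Cxcl14, known from skin epithelium, is on chromosome 13 and had -1.67, -1.67 and -0.99 in APJ KO, against -2.12, -1.74 and 1.17 in WT. WT replicate 3 stood far above the rest, and the difference of -0.54 (95% confidence interval -2.55 to 1.46) was 0.49 without it. Of the 7 tested keratinocyte markers, 6 were also highest there, all but Trp63. Of the 10 listed, 6 were seen on all arrays. Of the 7 tested, 0 had a difference above 0, beside 43.9% of everything tested, and their median was -1.28. Their summed signal was 11.5, 11.1 and 10.4 in APJ KO, against 10.3, 16.8 and 35.7 in WT, and the marker Dsc3 was on no array. Krt5, a keratin of basal epidermis, had 3.38 in WT replicate 3, against -1.80 in WT replicate 1. Their part in the Cxcl14 value was not tested.

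None of the remaining lymphocyte and dendritic cell ligands and receptors had groups that did not overlap on the tested probe. Ccl27a, a skin chemokine on chromosome 4 with near-identical copies, is uncertain, because 3 probes map to it. The probe tested had -1.13, -0.99 and -0.81 in APJ KO, against -1.03, -0.73 and -0.84 in WT, a difference of -0.11. Another probe had -1.67, -1.67 and -1.71 in APJ KO, against -2.47, -1.95 and -2.19 in WT, all APJ KO values above all WT values. The last probe had -1.28, -1.53 and -1.23 in APJ KO, against -1.20, -1.20 and -1.06 in WT, all below, so the probes of this gene disagree. Ccl19, with copies on the same chromosome, differed by -0.02 on its tested probe, and by -0.16 and -1.18 on its other probes. The Ccl19 probe at -1.18 was well above background on 1 APJ KO array and 2 WT arrays only. Ccl1, the ligand of CCR8, differed by -1.49 (95% confidence interval -3.95 to 0.98, adjusted p = 0.981). APJ KO replicates 1 and 2 were not well above background, so its size there rests on dim signal, and it was -2.32 without APJ KO replicate 3, -0.51 without APJ KO replicate 1 and -0.37 with normexp. The others, Ccl17, Ccr6, Ccr7, Ccr8 and Cxcr5, lay between -0.30 and 0.45 on the tested probe. Ccr8 was at -0.30 there, and at 0.56 on a second probe that was well above background on 1 array of each genotype.

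**Figure D5:**
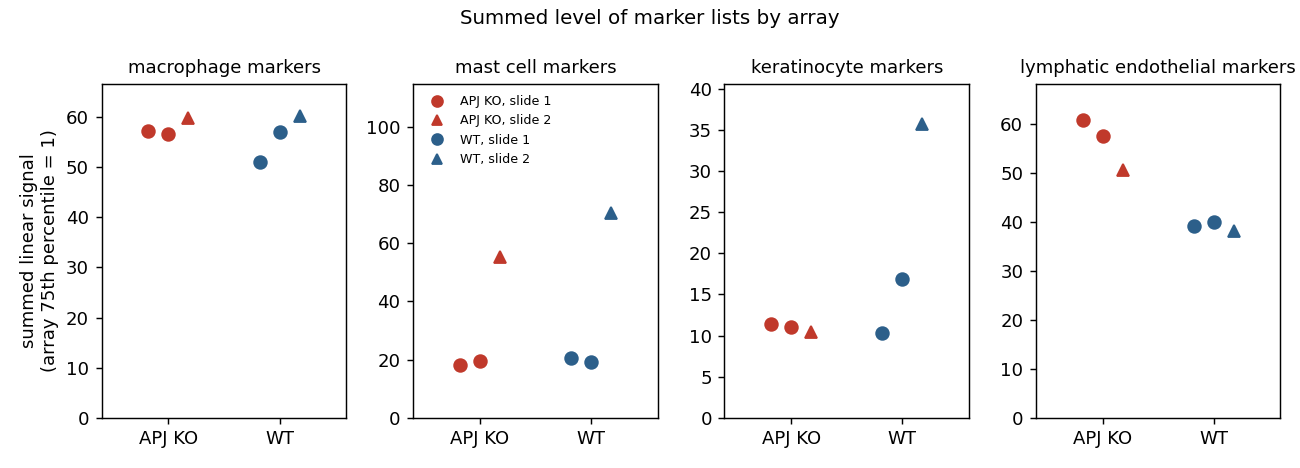
Summed linear signal of macrophage, mast cell, keratinocyte and lymphatic endothelial marker lists, with each array's 75th percentile set to 1, APJ KO (red) left of WT (blue), circles slide 1 and triangles slide 2. Mast cell sums are high on slide 2 in both genotypes, keratinocyte sums reach 35.7 in WT replicate 3, and lymphatic sums are 50.7 to 60.9 in APJ KO, against 38.2 to 40.1 in WT. Most of the macrophage sum came from Itgam.

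Other genes of the pathway were counted in lists. None of 7 tested of 10 other chemokine system genes passed (median 0.23), none of 19 of 21 genes of receptor signalling (median -0.01), none of 17 of 18 NF-kB inducers and feedback genes (median -0.01), and none of 14 of 14 interferon signalling genes (median -0.003). Ppbp, the platelet chemokine gene, had -0.72, -1.21 and -1.01 in APJ KO, against -1.62, -1.51 and -2.09 in WT (difference 0.76, adjusted p = 0.240). The platelet gene Pf4 differed by 0.48 (adjusted p = 0.323), also without overlap. The 6 platelet and megakaryocyte markers were all seen on all 6 arrays, and 5 lay above 0, beside 43.9% of everything tested. Their median was 0.21, and Clec1b differed by 0.70 (limma adjusted p = 0.0673). The summed signal of these markers was 3.77 to 4.55 in APJ KO, against 3.104 to 3.406 in WT. Their part in the Ppbp value was not tested. Relb, an NF-kB subunit of the noncanonical pathway, had 0.94, 1.31 and 1.18 in APJ KO, against 1.64, 1.68 and 1.71 in WT (difference -0.53, adjusted p = 0.158). Irak3, an inhibitor of interleukin-1 receptor signalling, differed by 0.50 (adjusted p = 0.239), Socs1, an inhibitor of cytokine signalling, by -0.31 (0.426), Elmo1, an adaptor of Rac activation, by 0.21 and Grk3, a kinase of activated receptors, by 0.57, the last 2 with adjusted p of 0.905.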

How the data were processed

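RNA, prepared on RNeasy columns with 0.1 µg labelled with Cy3 per the labels' protocols, was measured in 3 APJ KO and 3 WT samples. Per the file headers, the deposited scanner output came from Agilent Feature Extraction (version 10.7.3.1), and its files hold a background-subtracted processed intensity per spot on a linear scale. The value table the authors deposited equals that intensity times 1 constant per array (2.29 to 3.69, origin not given) and was an alternative. Its medians were 66.98, 60.30 and 63.25 in APJ KO and 63.46, 62.09 and 65.15 in WT. Symbols came from RefSeq genes by unversioned accession (97.7% of probes with a curated accession, 47.4% of all), and the array design follows mm9, so no array coordinates are given.

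Control spots and outlier spots (126 to 179 per array) were left out, log2 intensity minus the array's 75th percentile was taken, and spots of 1 probe were averaged. limma 3.58.1 in R 4.3.3 fitted genotype over 24246 genes and unnamed probes, keeping the highest-mean probe per symbol, with two-sided p adjusted by Benjamini-Hochberg at a threshold of 0.05. Every difference is APJ KO minus WT. Per-array values are given for tested genes with non-overlapping groups and a difference of at least 0.5, and for the 12 with the highest signal; Cxcl2, Nfkbia, Irf1 and others were added after their values were seen. From each pathway list, the 2 genes with the smallest unadjusted p are named, apart from 1 gene that is not reported here. Members and lists were chosen with earlier results of these data known. Same-numbered samples deviated together (r = 0.233, 0.152 and 0.649), although slide-mates of other numbers did as well (0.279 and 0.358). Alternatives covered scaling, background correction, source of values, filter, probe choice, slide, pairing and leaving out arrays. The normexp alternative used the median spot signal, since the files hold no mean signal column.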

Additional observations from a re-analysis of the deposited data

Results flagged for a closer look

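Ccl7, a monocyte chemokine gene on chromosome 11, was outside the test because it was not well above background on all arrays of either genotype. It was well above background on 2 of 3 APJ KO arrays and 0 of 3 WT arrays, with -4.87, -4.08 and -3.67 in APJ KO, against -6.52, -5.76 and -6.10 in WT, a signal outside the main measurement. Its mean over the 3 APJ KO arrays was 1.46-fold above a WT limit. The limit was the mean of the lowest signals called well above background on the 3 WT arrays (-4.73, -4.35 and -5.17). A signal above such a value can still go uncalled, so the limit is not a strict bound. In APJ KO replicate 2, for example, Ccl1 at -4.44 was not called, while the lowest called signal was -4.53. That mean includes APJ KO replicate 1, which was not well above background, and the spread between arrays is left out, so a smaller true ratio is possible. The ratio was not tested.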

How the results depend on the processing

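The chemokine results were recomputed under up to 16 alternatives, where each could give a value. No member was called higher or lower in any setting other than the slide block, where 2 were higher, Ackr2 and Ccr2. Over all genes, 90 were higher and 45 lower; these became 190 and 101 blocking by slide, 4 and 1 with the replicate block, 3 and 0 without the filter, 9 and 2 within slide 1, and 11 to 46 and 1 to 26 when 1 array was left out. Aplnr kept its direction in all settings; its difference was -1.69 without the filter (adjusted p = 0.188) and with the replicate block (0.0780), -1.76 within slide 1 (0.0850), and -1.84 to -1.57 when 1 array was left out (0.0354 to 0.145). The chemokine median ran from -0.13 to 0.41 and the number above 0 from 11 to 17 when 1 array was left out, and 22 of 45 were above 0 without the filter. Groups did not overlap for 4 genes in the main fit, beside 12.2% of everything tested. The number was 16 within slide 1 and 4 to 13 with 1 array left out, where fewer arrays make separation likelier. The share over everything tested was not computed in those settings. The numbers therefore cannot be read as particular to the chemokine genes. Differences changed sign for Ccl27a (0.0736 with the mean of probes, 0.0328 within slide 2), Cxcl1 (-0.23 within slide 2), Cxcl10 (0.0762), Cxcl14 (0.262) and Cxcr6 (0.0328) within slide 1. With 1 array left out they ran from -0.65 to 0.43 for Ccl17, -0.121 to 0.0840 for Ccl19, -0.629 to 0.0179 for Ccr8, -0.13 to 0.71 for Cxcl1, -0.696 to 0.0783 for Cxcl10, -1.16 to 0.49 for Cxcl14 and -0.28 to 0.11 for Cxcr6. With normexp, differences of dim genes were smaller than without it, and the 6 genes at 1 or more in size became 0. The cause was not tested. The replicate block changed no chemokine call. By the scanner's laxer call of a signal above background, 32 to 37 genes per array were detected, against 25 to 30. With 3 arrays per genotype, precision is limited, and dim probes are bounded by background.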
